A study of Danio rerio with 4 samples.

Results

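Dense 5hmC neighbourhoods are stretches of the zebrafish genome in which the control morpholino list held an unusually large number of 5-hydroxymethylcytosine (5hmC) peaks. The 25 chromosomes were divided into fixed windows of 100 kb from position 0, and a window was dense if it held the midpoints of at least 35 control peaks and lay at least 2 Mb from either chromosome end. Of 12438 interior windows, 831 met this rule, which is 6.68% of them, or 83.1 Mb of 1243.8 Mb. They contained 14785 of 65672 interior tet2/3 morpholino peaks and 33489 of 202944 interior control peaks. The windows were selected on the number of control peaks, so control density is a description here and not a finding. Interior windows with 12 to 20 control midpoints, 3903 in all, served as comparison windows, with 16944 tet2/3 morpholino and 61412 control peaks.

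One group was zebrafish embryos that carried a tet2/3 double morpholino and the other embryos with a control morpholino, both collected at 48 hours after fertilisation. Morpholinos are antisense oligonucleotides that lower translation or splicing of a transcript for a few days after injection, and peak lists of DNA do not show how far tet2 and tet3 were lowered. Source tissue is labelled embryo while the extraction text speaks of the head, and neither strain nor the number of pooled animals is stated. Each group had 1 antibody pull-down (hMeDIP, in which denatured fragments carrying 5hmC are precipitated and sequenced) and 1 input, and each pull-down has 1 peak list. With 1 library per group, no difference below has a replicate check and no p-value is given. Intervals are 95% intervals that hold counting error alone, as if adjacent peaks were independent.

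5hmC is made by TET dioxygenases, which oxidise the methyl group of 5-methylcytosine. It is a step on the route to demethylation and also a stable mark, and in vertebrate tissues it is known to accumulate over enhancers and the bodies of transcribed genes. In zebrafish, tet2 and tet3 are the main enzymes that produce it in the embryo. Genes and enhancers were not assigned to the windows because no annotation of the build of the lists (GRCz11) was used, and no sequence is shown for the same reason.

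Before the values are read, the depth behind the 2 lists has to be kept in view. Fold and p-value of each peak together give its pileup and background. One fragment of the tet2/3 morpholino pull-down counted as 0.474 at peak calling and 1 fragment of the control pull-down as 1, and the lowest background was 2.81 in the tet2/3 morpholino list and 7.53 in the control list. The tet2/3 morpholino list was therefore called at lower effective depth. Its peak number, width and overlap describe what was called, not the amount of 5hmC, and folds are compared only within a list.

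Dense windows occurred on all 25 chromosomes, at uneven frequency. They made up 6.71% of interior windows on an average chromosome (SD 2.15 over 25 chromosomes), with 3.41% on chromosome 3 as the lowest and 10.8% on chromosome 13 as the highest value. Most lay on chromosome 7, 72 of 702, followed by chromosome 13 with 52 of 481 and chromosome 4 with 51 of 740. Chromosome 25 had the fewest, 13 of 335. All 51 windows on chromosome 4 lay in its first part, the last of them ending at 24100000. There, 51 of the 280 interior windows before 30 Mb were dense (18.2%), against 0 of 460 from 30 Mb onwards. That count allows a share of up to 0.652% only if adjacent windows are taken as independent.

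**Figure D1:**
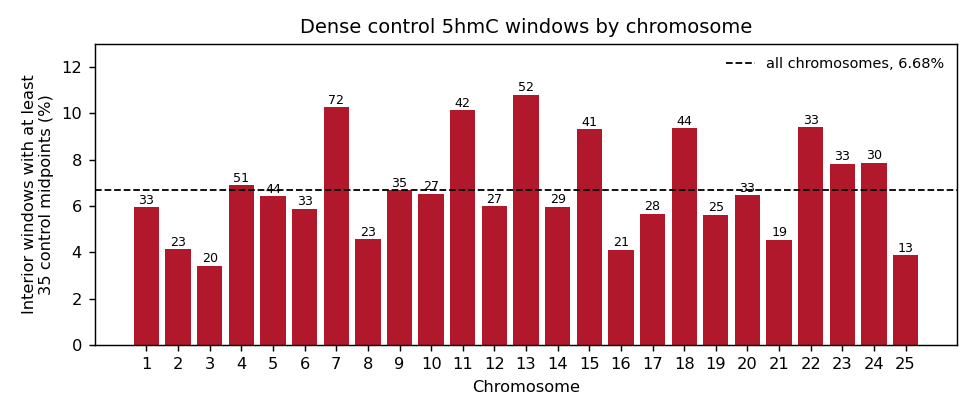
Percentage of interior 100 kb windows with at least 35 control midpoints on each chromosome, with the number of such windows above each bar and the value over all chromosomes as a dashed line. Chromosomes 13, 7 and 11 stand highest, at 10.8%, 10.3% and 10.1%, and chromosomes 3 and 25 lowest, at 3.41% and 3.88%.

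Within the interior, dense windows did not become steadily more or less frequent with distance from the chromosome end. They formed 6.40% (5.27 to 7.75) of windows between 2 and 5 Mb from the nearest end, 5.12% (4.32 to 6.05) between 5 and 10 Mb and 5.24% (4.43 to 6.18) between 10 and 15 Mb. The share was 8.60% (7.55 to 9.77) between 15 and 20 Mb and 7.60% (6.77 to 8.53) between 20 and 40 Mb. The frequency was thus higher in the inner bins than between 5 and 15 Mb, and in each bin the number of tet2/3 morpholino peaks per control peak inside dense windows lay between 0.422 and 0.454. The bins pooled all chromosomes, with chromosome 4 from 30 Mb onwards included, and longer chromosomes fill more of the innermost bin. Distance was therefore not separated from chromosome.

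More than 1 dense window in a row was common. The 831 windows fell into 538 separate runs, of which 370 were single windows, 96 were pairs, 43 were triplets and 14 held 4 windows. Longer runs were rare, with 9 of 5 windows, 3 of 6 and 3 of 7, the last spanning 700 kb. In all, 461 dense windows (55.5%) had a dense neighbour. Windows in runs of 3 or more held 19.3 tet2/3 morpholino and 41.3 control midpoints on average, a ratio of 0.468 (0.453 to 0.483). Single windows held 16.6 tet2/3 morpholino and 39.2 control midpoints, a ratio of 0.423 (0.411 to 0.436). Median widths were also larger in runs of 3 or more than in single windows. They were 350 bp in runs of 3 or more and 327 bp in single windows for tet2/3 morpholino peaks. For control peaks they were 509 bp in runs of 3 or more and 450 bp in single windows. Runs of 5, 6 and 7 windows had tet2/3 morpholino medians of 329, 327 and 327 bp, and control medians of 508, 506.5 and 495 bp. Their ratios were 0.441, 0.459 and 0.435, against 0.484 in triplets and 0.467 in runs of 4. Neither the ratio nor the tet2/3 morpholino width thus rose steadily with run length.

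The 3 longest runs illustrate how the 2 lists filled such a domain, in which the rule sets at least 35 control midpoints for every window. On chromosome 7, the run at chr7:36800001-37500000 held 109 tet2/3 morpholino and 275 control peaks. Its 7 windows ranged from 7 to 24 tet2/3 morpholino midpoints and from 35 to 47 control midpoints. On chromosome 13, the run at chr13:16800001-17500000 held 131 tet2/3 morpholino and 276 control peaks, with 13 to 25 tet2/3 morpholino and 35 to 52 control midpoints per window. On chromosome 24, the run at chr24:4000001-4700000 held 132 tet2/3 morpholino and 304 control peaks, with 12 to 24 tet2/3 morpholino and 38 to 48 control midpoints per window. The window with fewest tet2/3 morpholino midpoints in the chromosome 7 run, chr7:37000001-37100000, had 7 tet2/3 morpholino and 39 control midpoints, while the window 200 kb further on had 24 tet2/3 morpholino and 40 control midpoints. Control number was therefore nearly level across these 2 windows and tet2/3 morpholino number was not. The strongest peaks of the run on chromosome 7 lay at 37428250-37428700 in the tet2/3 morpholino list (fold 9.22) and at 37246035-37247271 in the control list (fold 13.8). On chromosome 13 they lay at 17392929-17394213 (tet2/3 morpholino fold 8.66) and 17120454-17121314 (control fold 12.7), and on chromosome 24 at 4142789-4143912 (tet2/3 morpholino fold 10.1) and 4223203-4223810 (control fold 13.0). In none of the 3 runs did both lists have their strongest peak at the same place.

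Peak number dropped quickly outside the runs, in both libraries. Dense windows averaged 17.8 ± 6.62 tet2/3 morpholino and 40.3 ± 4.75 control midpoints (SD, 831 windows). The first window beyond a run held 8.14 ± 4.93 tet2/3 morpholino and 23.4 ± 7.67 control midpoints (SD, 1074 windows), and the window at 200 kb 5.70 ± 4.43 tet2/3 morpholino and 18.6 ± 8.27 control midpoints (SD, 927 windows). At 1000 kb the averages were 4.73 tet2/3 morpholino and 16.2 control midpoints, still somewhat above the 4.38 tet2/3 morpholino and 14.6 control midpoints of an average interior window that was not dense. Flanking windows had to hold fewer than 35 control midpoints, so the drop at the edge is set by the rule in the control list. No such limit was placed on the tet2/3 morpholino list itself, but its peak number followed control number over interior windows (Spearman correlation 0.812). Its drop is therefore not independent of the rule. The first flanking windows held 0.348 tet2/3 morpholino peaks per control peak. Interior windows with 21 to 27 control midpoints held 0.312, and those with 28 to 34 held 0.365. Of the first flanking windows, 36.03% held 28 to 34 control midpoints and 8.57% held fewer than 12. At 1000 kb these shares were 11.9% (28 to 34) and 33.6% (fewer than 12). Over the interior, 1081 of 12438 windows held 28 to 34. The fixed grid can cut a dense stretch inside a window, so a shoulder of intermediate density cannot be told apart from such cuts.

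**Figure D2:**
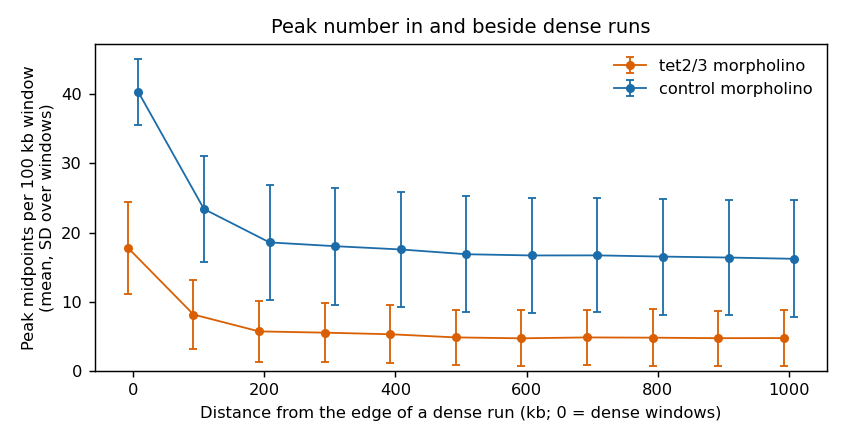
Mean number of peak midpoints per 100 kb window (bars are SD over windows) in dense windows, at 0, and in flanking windows that were not dense, by distance from the edge of the run in kb, for the tet2/3 morpholino list and the control list. Both lists drop within 200 kb, to 5.70 tet2/3 morpholino and 18.6 control midpoints.

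The tet2/3 morpholino list did not enter the rule, and its peaks were concentrated in the windows too. Of its interior peaks, 91.7% shared 1 bp or more with a control peak. This concentration is therefore not independent of the rule. Dense windows held 22.5% of interior tet2/3 morpholino peaks and 16.5% of interior control peaks in the same 6.68% of windows. By covered length, the shares were 26.7% for tet2/3 morpholino and 20.2% for control. The 2 lists were of unequal length, and these shares were not computed with lists of equal length. Tet2/3 morpholino midpoints per dense window ranged from 3 to 46 with a median of 17, against 0 to 25 with a median of 4 in comparison windows. The 2 ranges overlapped, but 827 of 831 dense windows lay above the comparison mean of 4.34. Lower and upper quartiles were 13 and 22 in dense, 2 and 6 in comparison and 1 and 7 in all interior windows. Many windows that were not dense therefore lay above 4.34 too. Seen from the other side, the 865 interior windows with at least 15 tet2/3 morpholino midpoints included 555 dense windows, which is 64.2% of those windows and 66.8% of the dense ones. Of the other 310, 227 held 28 to 34 control midpoints and none held fewer than 15. Among all 12438 interior windows, 1081 held 28 to 34. Over all 12438 interior windows, which share the same 2 libraries, the Spearman correlation between the 2 peak numbers was 0.812.

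Fewer peaks were called after tet2/3 knockdown inside dense windows, as elsewhere. The control list exceeded the tet2/3 morpholino list by 22.5 peaks per dense window and by 11.4 per comparison window. Control number defines both classes of window, so these excesses are not independent of the rule. With the full lists, the tet2/3 morpholino number relative to the control number was higher in dense windows. There were 0.441 (0.433 to 0.450) tet2/3 morpholino peaks per control peak in dense windows, 0.276 (0.271 to 0.281) in comparison windows and 0.324 over the interior. The ratio in dense windows exceeded that in comparison windows on 25 of 25 chromosomes, with means of 0.439 (SD 0.0265) in dense and 0.275 (SD 0.0212) in comparison windows. The dense value depended on the lists, and was 0.262 with both lists at a −log10 q of at least 5 and 0.893 with the control list cut by q to equal length. That cut made the 2 lists equally long over the 25 chromosomes, so 0.893 lay below the ratio of all chromosomes together. With the full lists, of 80550 tet2/3 morpholino and 226591 control peaks there, 0.441 lay above that ratio. Whether the dense value lay above or below the ratio of all chromosomes thus depended on list length. The ratio of all chromosomes includes windows near the chromosome ends. In comparison windows the ratio was not computed at the q threshold or with lists of equal length. The count of 25 of 25 chromosomes therefore holds for the full lists only. No dense window held more tet2/3 morpholino than control midpoints. The rule asks for many control midpoints and the tet2/3 morpholino list was the shorter, so this outcome was nearly set beforehand. In 285 dense windows the tet2/3 morpholino number was at least 0.5 of the control number, and in 78 it was under 10. These 2 counts were not taken over all interior windows. There the median tet2/3 morpholino number was 4 and the upper quartile 7, so a number under 10 was usual.

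With the full lists, the ratio climbed from the class of 12 to 20 control midpoints upwards and did not step up at 35. It was 0.276 at 12 to 20 control midpoints, 0.312 at 21 to 27, 0.365 at 28 to 34 and 0.406 at 35 to 39. Above that it was 0.459 at 40 to 44, 0.483 at 45 to 49 and 0.525 (0.491 to 0.561) at 50 to 60, where 49 windows remained. The 2 sparsest classes broke the order, with 0.296 at 0 to 5 and 0.254 at 6 to 11. Windows just inside and just outside the threshold were much alike. The 109 windows with 35 control midpoints held 3 to 29 tet2/3 morpholino midpoints (median 13), and the 136 windows with 34 held 2 to 26 (median 12).

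**Figure D3:**
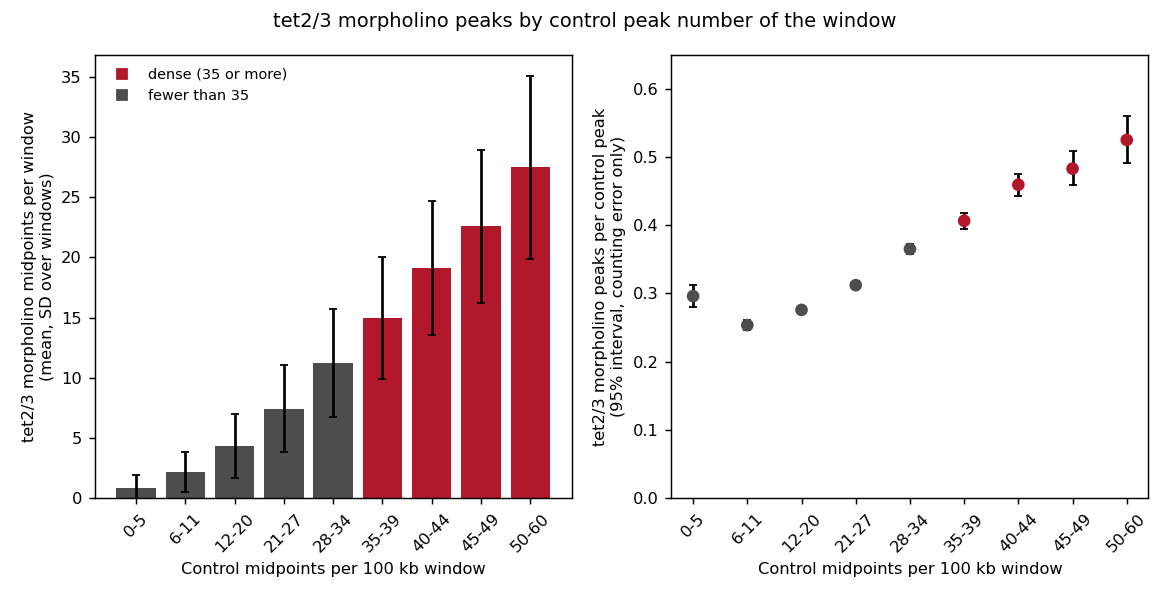
Left, mean number of tet2/3 morpholino midpoints per 100 kb window (bars are SD over windows) and right, tet2/3 morpholino peaks per control peak with 95% counting intervals, by the number of control midpoints in the window. Dense classes are red. The ratio is 0.254 at 6 to 11 control midpoints and 0.525 at 50 to 60.

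The fullest window of all, chr4:15300001-15400000, held 26 tet2/3 morpholino and 60 control midpoints and belonged to a run of 6. Control peaks covered 41.1 kb of it, and 22 of the 60 (36.7%) were overlapped. Its strongest peaks were at 15324920-15325209 in the tet2/3 morpholino list (fold 5.32) and 15376097-15377053 in the control list (fold 9.65). The second window, chr22:21000001-21100000, held 18 tet2/3 morpholino and 58 control midpoints, with only 15 control peaks overlapped (25.9%). It carried the strongest peaks of these 5 windows, at 21098181-21099396 (tet2/3 morpholino fold 15.8) and 21057725-21059767 (control fold 19.5). The third, chr15:39400001-39500000, held 33 tet2/3 morpholino and 57 control midpoints, with 31 control peaks overlapped. In the remaining pair, chr6:6500001-6600000 held 25 tet2/3 morpholino and 56 control midpoints, and chr8:17400001-17500000 held 35 tet2/3 morpholino and 56 control midpoints. Windows of nearly equal control number thus differed by up to 1.94-fold in tet2/3 morpholino number.

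At the extremes the spread was wider. The highest ratio, 0.919, was at chr18:5300001-5400000, with 34 tet2/3 morpholino and 37 control midpoints and 29 control peaks overlapped (78.4%). It was followed by chr21:23200001-23300000, with 43 tet2/3 morpholino and 48 control midpoints, and chr4:17000001-17100000, with 46 tet2/3 morpholino and 54 control midpoints. Control peaks covered 42.2 kb of the chromosome 21 window and 48.7 kb of the chromosome 4 window. The lowest ratio, 0.0789, was at chr12:24400001-24500000, with 3 tet2/3 morpholino and 38 control midpoints. The next were chr7:43000001-43100000, with 3 tet2/3 morpholino and 35 control midpoints, and chr4:13800001-13900000, with 4 tet2/3 morpholino and 35 control midpoints. In the chromosome 12 window the strongest control peak, at 24458035-24458711 with a fold of 11.5, was 1 of the 3 overlapped there. The chromosome 7 window had the highest mean control background of all 831, 16.3 fragments against a median of 9.20, and its part in the low ratio was not tested. The chromosome 18 window had the lowest, 8.13 fragments, and the part of that in the high ratio was not tested either. Over the 831 windows the overlapped share of control peaks had an SD of 12.2 points, where binomial counting alone would give 7.51.

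Peaks in dense windows were broader in both lists. The median tet2/3 morpholino width was 341 bp (336 to 346) in dense and 256 bp (253 to 258) in comparison windows. For control peaks it was 474 bp (470 to 478) in dense and 367 bp (365 to 369) in comparison windows. The dense median was the larger on 25 of 25 chromosomes in each list, by 86.2 bp on average (SD 17.2) for tet2/3 morpholino and by 106 bp (SD 18.8) for control. Width rose through the classes below the threshold too. Medians were 310 bp (tet2/3 morpholino) and 434 bp (control) at 28 to 34 control midpoints. At 35 to 39 they were 325 bp (tet2/3 morpholino) and 455 bp (control), so greater width was not particular to dense windows. Widths of 1 kb or more were reached by 3.70% of tet2/3 morpholino and 11.1% of control peaks in dense windows, and by 1.24% of tet2/3 morpholino and 2.75% of control peaks in comparison windows. Peaks covered 7.31 kb per dense window in the tet2/3 morpholino list and 23.5 kb in the control list, against 1.35 kb (tet2/3 morpholino) and 6.81 kb (control) per comparison window.

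Strength within each list moved in the same direction. The median deposited fold of tet2/3 morpholino peaks was 4.17 in dense and 3.99 in comparison windows, and 15.1% of them in dense and 10.4% in comparison windows had a fold of at least 6. Control peaks had medians of 4.38 in dense and 3.61 in comparison windows, with 27.03% in dense and 11.3% in comparison windows at 6 or more. Median pileup at the summit of tet2/3 morpholino peaks was 38 fragments before scaling in dense and 35 in comparison windows, and that of control peaks 43 in dense and 35 in comparison windows. The mean background was slightly higher in dense windows. It was 3.71 in dense and 3.53 in comparison windows for the tet2/3 morpholino list, and 9.22 in dense and 9.07 in comparison windows for the control list. At equal control fold, taken as 6 classes of fold, control peaks were still wider in dense windows. Below a fold of 3 their median width was 295 bp in dense and 284 bp in comparison windows, and at 4 to 5 it was 479 bp in dense and 416 bp in comparison windows. At 8 or more it was 850 bp (832 to 868) in dense and 639 bp (625 to 655) in comparison windows. Folds were not identical within a class, and median control pileup at 8 or more was 88 fragments in dense and 84 in comparison windows.

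**Figure D4:**
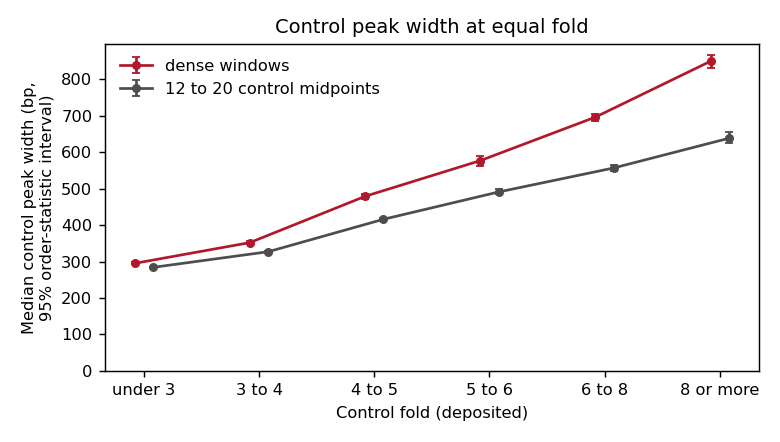
Median width of control peaks in bp (bars are 95% order-statistic intervals) by deposited control fold, in dense windows and in windows with 12 to 20 control midpoints. The lines are 11 bp apart below a fold of 3 and separate to 850 bp in dense and 639 bp in comparison windows at 8 or more.

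Neighbouring peaks lay close together, so the number of peaks in a window depended on where one was taken to end and the next to begin. The median gap between adjacent peaks was 3034 bp (tet2/3 morpholino) and 1456 bp (control) in dense windows, against 8236 bp (tet2/3 morpholino) and 3542 bp (control) in comparison windows. Of the control gaps, 36.2% were under 1 kb in dense and 15.3% in comparison windows. Control number per window defines both classes, so shorter control gaps in dense windows follow from the rule. Joining peaks less than 500 bp apart left 240 of the 831 windows (28.9%) with at least 35 control midpoints. Joining at 1 kb left none, and the dense windows then averaged 15.1 tet2/3 morpholino and 25.9 control intervals, against 4.00 tet2/3 morpholino and 13.4 control intervals in comparison windows. Joining at 2 kb left 12.5 tet2/3 morpholino and 14.2 control intervals per dense window, against 3.78 tet2/3 morpholino and 11.3 control intervals per comparison window. The contrast in control number thus shrank with the joining distance and was small at 2 kb, while that in tet2/3 morpholino number shrank less.

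Nearly every tet2/3 morpholino peak in a dense window touched a control peak. Of 14785, 14369 (97.2%, 96.9 to 97.4) shared 1 bp or more with one, against 88.9% (88.5 to 89.4) in comparison windows and 91.7% over the interior. Control peaks cover more of a dense window, so chance is higher there. Rotating the tet2/3 morpholino peaks inside each window by 20, 40, 60 or 80 kb left 39.6% overlapped in dense and 10.7% in comparison windows. With this chance removed, the shares were 95.3% in dense and 87.6% in comparison windows. Windows between these classes came near the dense value, with 92.6% at 21 to 27 and 93.7% at 28 to 34 control midpoints. Requiring 50% of both intervals lowered the dense value to 44.1%, and it was 72.2% with the control list cut to equal length. Those with no control peak under them numbered 416 in dense windows, or 0.501 per window, and 1873 in comparison windows, or 0.480 per window. Total tet2/3 morpholino number per window differed 4.10-fold. Control peaks leave less room for unmatched peaks in a dense window. Raised for those that would land on a control peak, the number of freely placed peaks was 0.829 per dense and 0.538 per comparison window. The raise used the rotated share of all tet2/3 morpholino peaks, 39.6% in dense and 10.7% in comparison windows. Unmatched peaks were narrower than the others, so the raise may be too large. Unmatched peaks were narrow and weak, at a median of 182 bp and a fold of 3.62 in dense windows, against 347 bp and 4.18 for those on a control peak. The same held in comparison windows, at 175 bp and 3.74 for unmatched peaks against 269 bp and 4.04 for those on a control peak.

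Control peaks were overlapped more often in dense windows before chance was considered. Of 33489, 13502 (40.3%, 39.8 to 40.8) shared 1 bp or more with a tet2/3 morpholino peak, against 23.9% (23.5 to 24.2) in comparison windows and 28.5% over the interior. Rotated tet2/3 morpholino peaks hit 17.4% of control peaks in dense and 2.96% in comparison windows. With that removed, 27.7% were left in dense and 21.5% in comparison windows, a difference of 6.19 points, positive on 25 of 25 chromosomes (mean 6.31, SD 2.24). Counting peaks within 500 bp as overlapped left 0.370 points (−0.501 to 1.24), an interval that holds 0. Rotation sets every tet2/3 morpholino peak free, including those that lie on a control peak of their own. If those are tied to that peak and not available to strike another, rotation is a high estimate of chance, which was not tested in these data. In a second estimate only unmatched tet2/3 morpholino peaks were treated as freely placed, with their number raised as described above. Chance was then 0.665% in dense and 0.337% in comparison windows, values that may be too high because the raise may be too large. The shares were then 39.9% in dense and 23.6% in comparison windows, a difference of 16.3 points (25 of 25 chromosomes, mean 16.3, SD 2.69). This second estimate of chance takes free peaks as unrelated to control peaks within a window. Few tet2/3 morpholino peaks were unmatched, so little was removed and the shares stayed close to the observed 40.3% in dense and 23.9% in comparison windows. All chromosomes share the same 2 libraries, so their equal sign is not a replicate check.

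At equal control fold the difference was smaller, and its sign depended on the estimate of chance. At a control fold of 3 to 4, 17.8% of control peaks were overlapped in dense windows and 14.3% in comparison windows. At 5 to 6 the shares were 52.5% in dense and 42.8% in comparison windows, and at 8 or more 89.7% in dense and 85.7% in comparison windows. Observed shares were higher in dense windows in all 6 fold classes, by 2.02 to 9.69 points. After removal of the rotated chance the dense windows were lower by 8.77 points below a fold of 3, where the observed 9.94% fell under the chance of 12.8%, and higher by 1.49 points at 6 to 8. Weighted to the folds of the dense windows, the difference was −3.45 points with the rotated chance and 5.45 points with chance from free peaks. The sign at equal fold was thus set by the treatment of chance. Dense control peaks were also wider at equal fold, which gives them more length to be met, and the part of width was not tested.

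**Figure D5:**
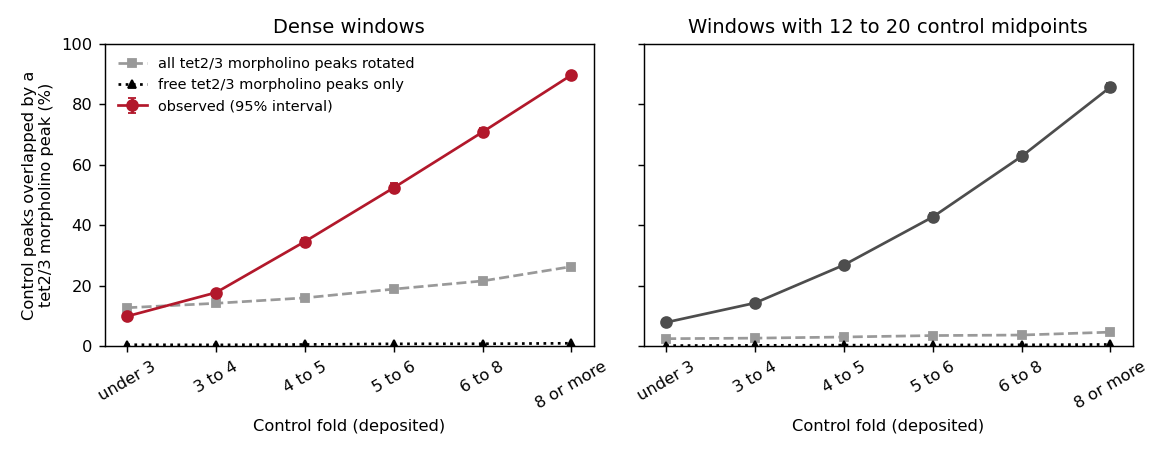
Percentage of control peaks overlapped by a tet2/3 morpholino peak (95% intervals) by deposited control fold, in dense windows on the left and windows with 12 to 20 control midpoints on the right, with the chance share from rotating all tet2/3 morpholino peaks (squares) and from free peaks only (triangles). The rotated chance is 12.8% to 26.4% in dense windows and 2.53% to 4.69% in the others.

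Within an overlapping pair, summits of the 2 lists lay further apart in dense windows, where the peaks were also wider. The median distance between summits was 83 bp (81 to 84) over 14528 pairs in dense windows and 62 bp (61 to 64) over 15141 pairs in comparison windows. Within 100 bp were 57.5% of pairs in dense and 68.2% in comparison windows. An overlapped control peak was met by 2 or more tet2/3 morpholino peaks in 926 of 13502 cases (6.86%) in dense windows and in 461 of 14648 (3.15%) in comparison windows. A tet2/3 morpholino peak spanning 2 or more control peaks was rare, at 1.08% in dense and 0.478% in comparison windows. The covered part of an overlapped control peak had a median of 55.1% in dense and 55.0% in comparison windows. In dense windows the median fold was 6.15 for overlapped control peaks, whose median width was 701 bp, against 5.03 and 521 bp in comparison windows. For the 19987 without overlap in dense windows these were 3.63 and 372 bp.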

How the data were processed

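5hmC pull-down libraries of zebrafish embryos (GRCz11) were compared as peak lists, 1 list per group. The submitters' processing notes list MACS2 2.2.7.1, deepTools and Bowtie2 2.2.6, without settings. The fold (ratio of summit pileup to background, each with 1 added), the −log10 p-values and q-values and the whole-number score (10 times the −log10 q) were deposited by the authors. Input reads were not analysed here.

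A peak belonged to the window of its midpoint. Chromosome length was the last peak end over both lists. Overlap meant at least 1 bp, and chance was the mean share after 4 rotations inside each window, removed as (share − chance) / (1 − chance). A second estimate, from unmatched peaks, was added after seeing the data. Their number was raised with the rotated share of all tet2/3 morpholino peaks, not of unmatched peaks alone. On simulated peaks that do not overlap within a list, with extra peaks placed freely, the second estimate came close to the share put in. Rotation gave too low a share there. The simulation placed its peaks as the second estimate assumes, so it cannot decide between the 2 estimates for these data. Pileup and background were solved for 100% of peaks from fold and p-value under a Poisson model, also tested on simulated data. Intervals are Wilson for shares and order-statistic for medians. Named windows were the 5 with most control midpoints, the 3 with the highest and lowest tet2/3 morpholino number per control peak, and the 3 longest runs. The windows, their members and the measures were chosen with earlier results of these data known. The planned naming of genes was not run, as no annotation of the build was used. Python 3.11.15, pandas 2.3.3, numpy 2.4.6 and scipy 1.17.1 were used.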

Additional observations from a re-analysis of the deposited data

Results flagged for a closer look

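Windows nearer than 2 Mb to a chromosome end were left out of all comparisons, yet 182 of 1025 of them (17.8%) also held at least 35 control midpoints, against 6.68% of interior windows. They averaged 29.1 ± 9.87 tet2/3 morpholino and 41.0 ± 5.29 control midpoints (SD, 182 windows), or 0.710 tet2/3 morpholino peaks per control peak, against 0.441 in interior dense windows.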

How the results depend on the processing

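The difference in chance-removed control share between dense and comparison windows was positive under all alternatives except equal control fold with rotated chance (−3.45 points). It was 4.15 points at a −log10 q of at least 5, 4.11 at a fold of at least 4, 0.370 within 500 bp (−0.501 to 1.24, which holds 0), 7.43 with the list moved along the chromosome, 12.3 with peaks under 1 kb apart joined, 16.3 with chance from free peaks and 5.45 with that chance at equal fold. The chance-removed control share in dense windows (27.7%) was 15.9% at the q threshold, 18.5% for 50% of both intervals, 20.995% within 500 bp, 28.6% with the list moved, 35.7% joined, 55.7% with lists of equal length, 26.95% rotated by 5 or 10 kb and 39.9% with chance from free peaks. The tet2/3 morpholino share (95.3%) was 96.4% at the q threshold, 83.7% at the fold threshold, 44.1% for 50% of both intervals, 95.8% with windows from 50 kb, 94.7% for at least 30 midpoints, 96.2% joined and 72.2% with lists of equal length. The number per control peak (0.441) was 0.262 at the q threshold, 0.423 at the fold threshold, 0.413 and 0.475 for at least 30 and 40 midpoints, 0.583 joined and 0.893 with lists of equal length. Control width (474 bp) was 510 bp, 623 bp, 459 bp, 496 bp, 747 bp and 666 bp under the same 6 alternatives. At least 30 or 40 midpoints gave 1551 or 384 windows by construction. Stricter thresholds, joining and a shortened control list change lists by construction, and for the other shifts the cause was not tested. Free-peak chance and the rotation by 5 or 10 kb were chosen after seeing the data. Windows from 50 kb gave 833 dense windows. Leaving out chromosome 4 gave 780, and the other 5 values then stayed inside their counting intervals. No paired analysis was possible because only 1 pull-down stands in each group. The lists were called at different effective depth, whose part in these values was not tested.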
